A study of Mus musculus with 22 samples.

Results

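Gastruloids called neural and gastruloids called mesodermal were compared at day 4.5 of culture, first in their makeup of cell types and then, gene by gene, within cells that carried the same cell type name in both. A gastruloid is a ball of mouse embryonic stem cells that elongates in culture and forms cell types of the early embryo trunk. All gastruloids came from the wild type E14Tg2A line, were seeded at 300 cells per well, were left 48 h to aggregate and then received 3 µM CHIR99021, a GSK3 inhibitor that switches on Wnt signalling. In MULTI-seq, the cells of each gastruloid are tagged with their own lipid-anchored DNA barcode before pooling, so that each sequenced cell can be traced to its gastruloid. Members were the cells that the authors' deposited cell table placed at day 4.5 in MULTI-seq 2 (pool B, 2 lanes) and MULTI-seq 3 (3 lanes), with the barcode of 1 gastruloid of either class. They were 7295 of the 77683 cells of the series and came from 28 of its 136 gastruloids. The neural class held 12 gastruloids (5 from the second experiment, 7 from the third, 2687 cells) and the mesodermal class 16 (7 and 9, 4608 cells), all with the same genotype, treatment and age. No gastruloid of day 4.5 was called intermediate. The sources used here do not say how the authors set the classes. Aggregates judged representative were picked for dissociation, and each came from its own well, so p-values below measure the spread between these gastruloids of 1 cell line.

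As background, the trunk of the embryo grows from a tailbud in which neuromesodermal progenitors (NMPs) supply both the spinal cord and the presomitic mesoderm (PSM), the tissue that segments into somites. Wnt and FGF ligands made in the tailbud hold these cells in a progenitor state and favour mesoderm, and the transcription factors T (brachyury) and Tbx6 mark and drive the mesodermal route. Cells that leave for the neural route keep or raise Sox2, gain Sox1 and lose T.

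The 5 lanes held between 89671084 and 274221744 UMIs (unique molecular identifiers, each counting 1 captured RNA molecule), and the median cell of a lane had 25275 to 30826 UMIs. Pairs of lanes shared 0 to 2 cell barcodes. A gastruloid gave 69, 230 and 397 cells (lowest, median and highest) in the neural class and 216, 263.5 and 445 in the mesodermal class. The difference of the means, 224 ± 109 (SD, n = 12) against 288 ± 70.3 (SD, n = 16), did not pass the threshold of 0.05 (two-sided exact permutation within experiment, p = 0.0537, adjusted p = 0.0895 over 5 measures). Within MULTI-seq 2 it was -117 cells, within MULTI-seq 3 -27.5.

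The makeup of the classes is described without a test, because the classes carry names of tissues, and whether they were set from these same shares is not known here. The 6 neural names of the table summed (Early, Late and Caudal Neurectoderm, Early and Late Spinal Cord, and Neurons) covered 61.6%, 80.3% and 95.7% of the cells of a neural gastruloid (lowest, median and highest) and 2.61%, 14.3% and 26.9% of a mesodermal one. The gastruloids on either side of the gap were both from MULTI-seq 3, at 61.6% and 26.9%. In MULTI-seq 2 the nearest were at 71.9% and 22.2%.

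Within the neural class, spinal cord names dominated. Late Spinal Cord held 21.1%, 33.5% and 36.8% of a neural gastruloid and 0%, 0.552% and 2.78% of a mesodermal one. Early Spinal Cord held 14.9%, 36.4% and 47.5% against 0.373%, 10.6% and 24.4%, so this name was present in every gastruloid of both classes. Late Neurectoderm set 3 neural gastruloids apart, with 35.6% and 21.7% (both MULTI-seq 2) and 44.1% (MULTI-seq 3) beside a class median of 3.15%.

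Mesodermal gastruloids held the names of the paraxial series, which runs from PSM to somites. Mature Somites made up 18.3%, 30.1% and 45.3% of a mesodermal gastruloid and 0%, 3.85% and 8.67% of a neural one, and Late Posterior PSM 4.01%, 13.7% and 29.7% against 0%, 2.1% and 9.83%. Head Mesoderm was found in every mesodermal gastruloid (0.397%, 3.58% and 20.1%) and in 0 of the 12 neural ones. Mature Endoderm, at 0.631%, 4.58% and 14.0%, was likewise in every mesodermal gastruloid and at 0 in 10 of the 12 neural ones. Shares of NMPs overlapped between the classes, at 0%, 6.54% and 8.86% in the neural and 3.36%, 7.06% and 17.3% in the mesodermal class. Those of Caudal Epiblast covered nearly the same range in both, at 0%, 1.56% and 4.27% against 0%, 1.83% and 4.13%.

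**Figure D1:**
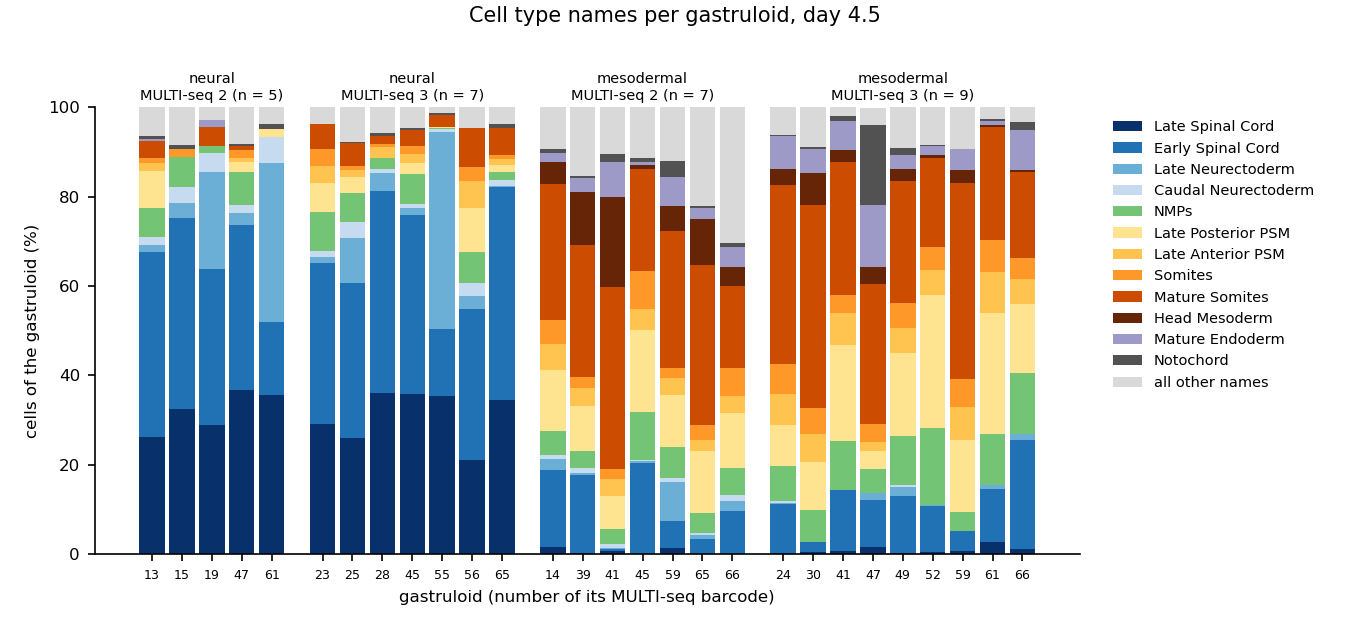
Share of cells (percent of the gastruloid, vertical axis) with each cell type name in every day 4.5 gastruloid, 1 bar per gastruloid, grouped by class and experiment. Blue names (spinal cord and neurectoderm) make up the larger part of the neural bars, and yellow to brown names (paraxial and head mesoderm) take up more of the mesodermal than of the neural bars, while the green band of NMPs has a median of 6.54% and 7.06%.

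Early Spinal Cord was the only name with 20 or more cells in at least 3 gastruloids of each class, and it entered the main comparison with 11 neural gastruloids (4 and 7 in the 2 experiments) and 11 mesodermal ones (4 and 7). Each gave 21 to 151 cells and 660683 to 5658408 summed UMIs. The name was checked against markers: Sox2 stood at 142 and 92.0 CPM (counts per 1000000 UMIs, all cells of a class summed) in neural and mesodermal gastruloids and Nkx1-2, a caudal neural and NMP marker, at 104 and 103 CPM. Msgn1, which marks PSM, had 0 UMIs in all 22 gastruloids, and Tbx6 was at 0.633 and 1.22 CPM in the classes. The 10 spinal cord and neural progenitor markers summed had medians of 363 and 299 CPM and the 8 NMP markers of 1041 and 1118 CPM, so the cells of this name carried genes of both lists. Cdx2 (317 and 368 CPM) and Hoxb9 (294 and 271 CPM) gave most of the NMP sum, and Sox2 is on both lists. T was at 12.8 and 29.8 CPM, so the sum alone does not give these cells an NMP identity. Because the name was given from the same expression profiles, the test below is conditional on it. A summed level also cannot tell fewer expressing cells from less RNA per cell.

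Early Spinal Cord cells of neural gastruloids had lower levels of tailbud genes (8 of 11 tested), of Wnt targets and feedback genes (8 of 12) and of Fgf8 and Fgf17, and higher levels of Sox1, Sox2, Tubb3 and Meis2. Of 9052 genes tested, 254 (2.81%) passed an adjusted p of 0.05 in edgeR's quasi-likelihood test with experiment as a block and Benjamini-Hochberg adjustment. Of these, 118 (1.3%) were higher and 136 (1.5%) lower in the neural class. Only 31 differed by more than 2-fold, 14 higher and 17 lower. Ranges were taken with both experiments pooled, here and below unless given per experiment, so level shifts between experiments can widen them. Ranges within 1 experiment were not counted. On this pooled basis the levels overlapped between the classes for nearly every gene: 2 of the 254 had ranges that did not overlap, and both of the 2 such genes among all 9052 were called. They were Nuak2, a stress-responsive kinase (11.4 ± 1.95 against 5.70 ± 1.35 CPM, SD, n = 11 each), and Pabpc1, the cytoplasmic poly(A)-binding protein (1118 ± 58.9 against 1285 ± 60.03 CPM, SD, n = 11 each), named here after their values were seen. No gene of 9298 passed the test of whether the class difference itself differed between the experiments (edgeR, 0 called, 407 with an unadjusted p under 0.05). The counts of calls depended on single lanes: without lane C of MULTI-seq 3, 71 genes were higher, and without its lane A, 81 were lower. Of the 3 neural gastruloids rich in Late Neurectoderm, 2 had enough Early Spinal Cord cells to be in the comparison (barcode 19 of MULTI-seq 2 and barcode 55 of MULTI-seq 3), and without these 2, 110 genes were higher and 129 lower.

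**Figure D2:**
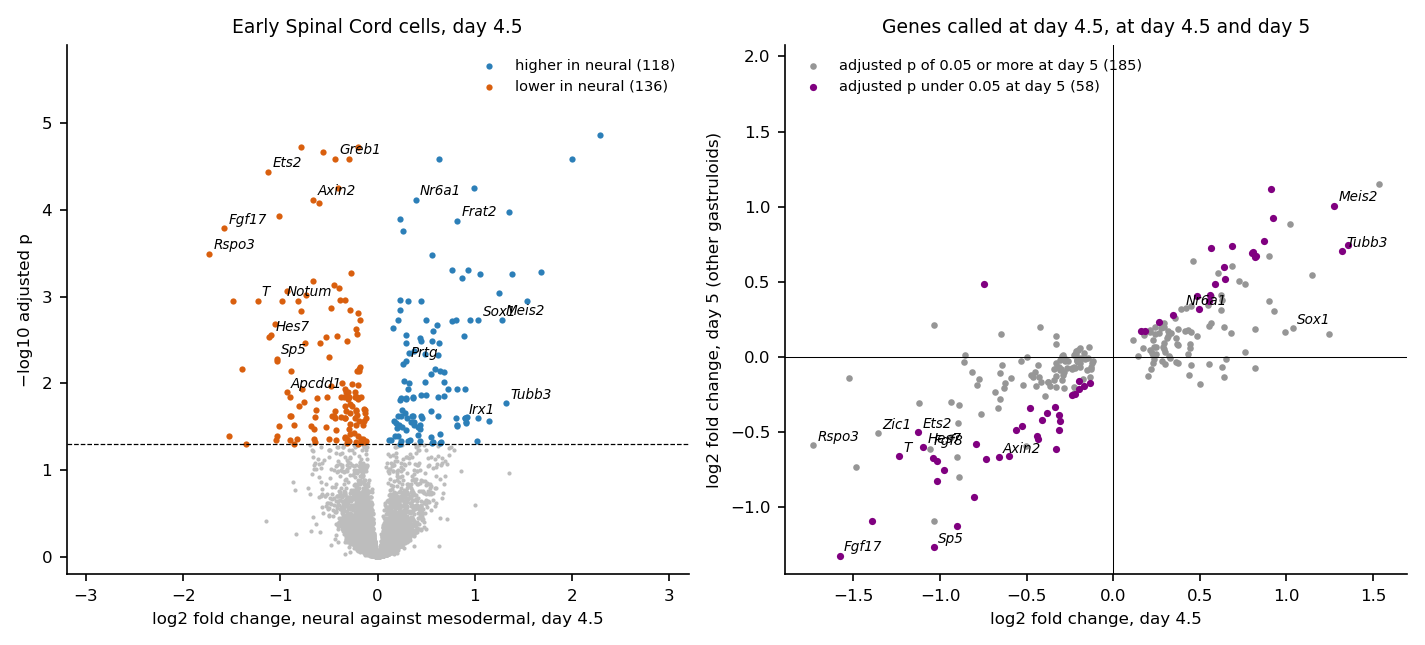
Left, log2 fold change of neural against mesodermal gastruloids (horizontal) and −log10 of the adjusted p (vertical, dashed line at 0.05) for the 9052 genes of Early Spinal Cord cells at day 4.5, with 118 higher and 136 lower in the neural class. Right, the log2 fold change of the called genes at day 4.5 (horizontal) against that in other gastruloids at day 5 (vertical), where most of the 243 points have the same sign on both axes and 58 passed an adjusted p of 0.05 at day 5.

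Of the 14 genes on the tailbud growth zone list, 11 were expressed enough to be tested, and 8 were lower and 1 higher in neural gastruloids. The median log2 fold change over those 11 was -0.50, beside -0.01 over all genes tested. Because the low-count filter could be passed through either class, such list counts and medians are given as descriptions. Ligands come first. Fgf17, an FGF of the tailbud and its neural border, had 7.88, 23.2 and 37.7 CPM (lowest, median and highest of 11 gastruloids) in the neural class and 36.8, 55.8 and 92.4 CPM in the mesodermal class. The ranges met only at their edges, and the log2 fold change was -1.58 (SE 0.209, edgeR adjusted p = 0.000161). Fgf8, the main FGF of the growing tail, stood at 39.7, 59.1 and 115 CPM against 94.96, 130 and 204 CPM, with every neural gastruloid below the mesodermal median (log2 -1.06, SE 0.183, edgeR adjusted p = 0.00207). Wnt5b, a noncanonical Wnt ligand, fell by 1.04 on the log2 scale (SE 0.281, edgeR adjusted p = 0.0453), a call lost in 21 of 40 alternative settings. Wnt3a, the canonical Wnt of the tailbud, was too low to test, at 0.697 CPM (22 UMIs) over the 11 neural and 5.73 CPM (89 UMIs) over the 11 mesodermal gastruloids, and was at 0 in 4 neural ones.

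Among the transcription factors of the tailbud list, T had 6.75, 12.1 and 21.4 CPM in neural and 13.5, 31.6 and 57.2 CPM in mesodermal gastruloids. All 11 neural gastruloids lay below the mesodermal median, although the ranges overlapped (log2 -1.24, SE 0.202, edgeR adjusted p = 0.0011, -1.61 and -1.05 in the 2 experiments). The homeobox gene Evx1 and its antisense neighbour Evx1os fell by 1.02 and 1.48 on the log2 scale, and reads of overlapping antisense genes may have been divided between them, so these 2 values are not independent. Cdx2, a homeobox gene that maintains posterior growth, differed little, at 247, 328 and 375 CPM against 337, 367 and 430 CPM (log2 -0.24, SE 0.0586, edgeR adjusted p = 0.025). Greb1, a cofactor gene active in NMPs, was at 97.7, 122 and 149 CPM against 129, 164 and 205 CPM (log2 -0.44, SE 0.0612, edgeR adjusted p = 2.5e-05). Nkx1-2 did not pass the test (106.6 and 105 CPM as class means, log2 0.02, SE 0.0699, edgeR adjusted p = 0.951), so the tailbud list did not move as 1 block. The member that was higher, Sall4, a zinc-finger gene of pluripotent and progenitor cells, had 99.3, 154 and 229 CPM against 77.0, 108 and 167 CPM (log2 0.44, SE 0.0961, edgeR adjusted p = 0.0135).

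Of the 16 Wnt targets and feedback genes, 12 were tested, and 8 were lower and 0 higher in the neural class, with a median log2 fold change of -0.37. Rspo3, which is on the presomitic list and encodes an R-spondin that protects Wnt receptors from degradation, had the steepest fall among the named genes. Its levels were 12.6, 24.2 and 39.3 CPM in neural and 28.9, 85.4 and 156 CPM in mesodermal gastruloids, with all 11 neural gastruloids below the mesodermal median (log2 -1.73, SE 0.242, edgeR adjusted p = 0.000317, -1.51 and -1.84 in MULTI-seq 2 and 3). Among the feedback inhibitors, which are switched on by Wnt and dampen it, Axin2, a scaffold of the complex that destroys beta-catenin, had 16.0, 26.8 and 35.8 CPM against 22.8, 39.9 and 60.3 CPM (log2 -0.66, SE 0.105, edgeR adjusted p = 7.5e-05). Notum, an enzyme that strips the lipid from Wnt proteins, had 2.63, 5.80 and 11.7 CPM against 5.26, 11.0 and 19.2 CPM (log2 -0.98, SE 0.191, edgeR adjusted p = 0.0011). The membrane inhibitor gene Apcdd1 and the Dishevelled-binding gene Nkd1 fell by 0.94 and 0.44 on the log2 scale.

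Among the transcription factors of the list, Sp5, a direct Wnt target that represses other targets, had 10.1, 32.9 and 48.9 CPM in neural and 41.3, 58.5 and 97.4 CPM in mesodermal gastruloids, and every neural gastruloid was below the mesodermal median (log2 -1.03, SE 0.199, edgeR adjusted p = 0.00517). Sp8 and Lef1, the latter a nuclear partner of beta-catenin, fell by only 0.28 and 0.22. Tcf7 (log2 -0.30, edgeR adjusted p = 0.344), Ccnd1 (0.11, 0.358), Fzd10 (-0.16, 0.295) and Znrf3 (0.04, 0.965) did not pass the test. Outside the list, Frat2, whose protein binds GSK3 and favours Wnt signalling, went the other way, with 16.6, 22.9 and 35.2 CPM against 4.64, 11.8 and 23.7 CPM and all 11 neural gastruloids above the mesodermal median (log2 0.82, SE 0.138, edgeR adjusted p = 0.000132).

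**Figure D3:**
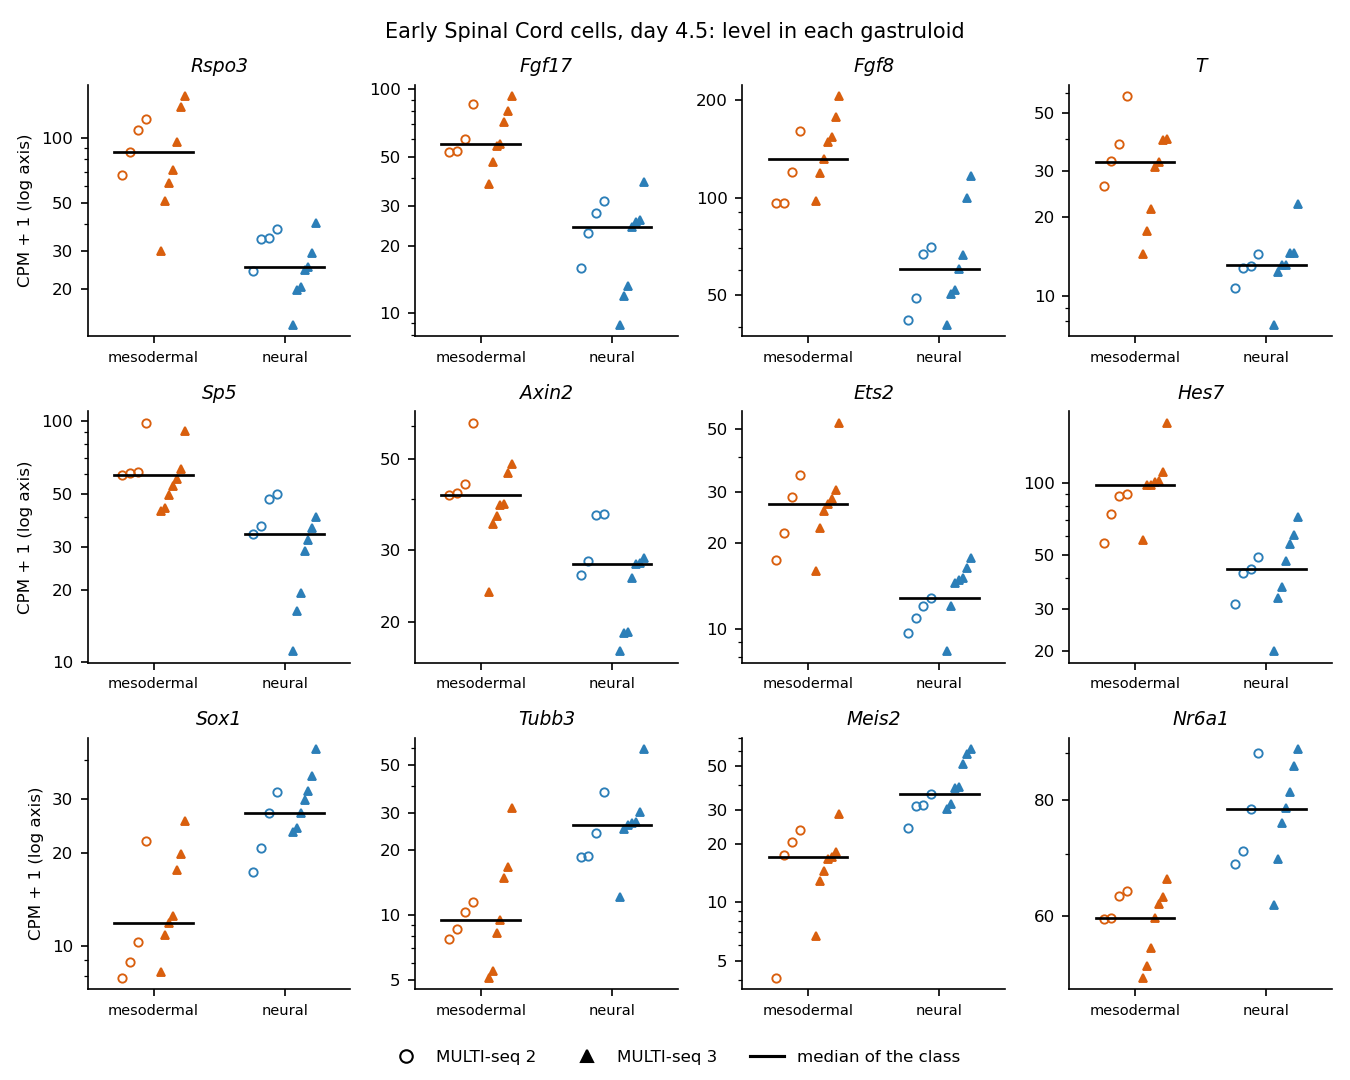
Level of 12 genes in Early Spinal Cord cells of each day 4.5 gastruloid, as CPM plus 1 on a log axis, with 11 gastruloids per class, open circles for MULTI-seq 2, filled triangles for MULTI-seq 3 and a line at the median of the class. The neural points of Rspo3, Fgf17, Fgf8, T, Sp5, Axin2, Ets2 and Hes7 lie below the mesodermal median and those of Sox1, Tubb3, Meis2 and Nr6a1 above it. The ranges of the classes overlap for every gene shown, for some, such as Axin2, past the neural median.

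Because 8 of these 12 Wnt genes were lower together, the 250 bases before their starts were searched for CTTTGA on both strands (TCAAAG on the other), the core bound by the TCF and LEF partners of beta-catenin, in RefSeq promoters of build GRCm38.p6, the patch level of mm10. Among all 27025 promoters of this length, 3797 (14.0%) held a match. Of the 12 genes, 8 had a RefSeq promoter and 2 of these (25%) did, Sp5 with 2 matches and T with 1. A set of 8 promoters is too small to tell these shares apart. The 2 promoters are printed 5′ to 3′ along the plus strand, on which both genes lie, with the matched letters in capitals. A match is a string of letters and not a measured binding site.
Sp5, chr2:70474673-70474922: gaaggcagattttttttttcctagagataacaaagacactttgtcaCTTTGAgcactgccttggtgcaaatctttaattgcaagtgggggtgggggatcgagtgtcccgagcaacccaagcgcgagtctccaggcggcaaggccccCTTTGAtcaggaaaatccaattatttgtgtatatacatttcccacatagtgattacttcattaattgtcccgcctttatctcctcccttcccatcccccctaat
T, chr17:8434173-8434422: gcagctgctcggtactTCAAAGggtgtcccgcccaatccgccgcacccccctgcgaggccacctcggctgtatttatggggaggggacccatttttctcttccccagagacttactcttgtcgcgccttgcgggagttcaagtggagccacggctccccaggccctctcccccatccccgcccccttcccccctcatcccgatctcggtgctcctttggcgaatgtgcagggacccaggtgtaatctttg

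Of 11 FGF ligands and feedback genes tested, 3 were lower (Fgf8, Fgf17 and Etv4) and 0 higher. Etv4, an ETS factor induced by FGF, had 26.8, 31.6 and 46.4 CPM against 36.8, 46.7 and 65.0 CPM (log2 -0.56, SE 0.0849, edgeR adjusted p = 2.1e-05). Ets2, a related factor outside the list, had 7.35, 11.8 and 16.7 CPM against 14.9, 26.3 and 51.7 CPM (log2 -1.13, SE 0.155, edgeR adjusted p = 3.6e-05). The feedback genes Dusp6 (log2 0.16, edgeR adjusted p = 0.715), Spry2 (0.16, 0.482), Spry4 (-0.58, 0.0953) and Etv5 (-0.22, 0.181) did not pass the test.

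Of 5 presomitic and boundary genes tested 2 were lower, Rspo3 and Hes7, and these were also the 2 called among the 4 PSM markers tested. Hes7, the oscillating repressor of the segmentation clock, was at 18.98, 42.8 and 70.8 CPM in the neural and 55.3, 96.9 and 176 CPM in the mesodermal class (log2 -1.10, SE 0.196, edgeR adjusted p = 0.00279). The 8 PSM markers summed were at 57.7, 95.2 and 133 CPM against 116, 199 and 346 CPM, and Hes7 and Rspo3 gave most of it in both classes. The 10 somite markers summed had medians of 16.8 and 16.2 CPM, and of 4 somite genes tested 1 was lower (Foxc1, log2 -0.90, SE 0.264, edgeR adjusted p = 0.0444). The defining PSM genes were at or near 0, with Msgn1 at 0 UMIs, Tbx6 at 0.633 and 1.22 CPM (20 and 19 UMIs) and Mesp2 at 0.253 and 0.386 CPM (8 and 6 UMIs) in the neural and the mesodermal class, whose summed UMIs differ. Id3 and Msx1, targets of BMP signalling, were 2 of 8 tested genes of that pathway and were both lower, Id3 with 90.3, 117 and 168 CPM against 113, 205 and 308 CPM (log2 -0.78, SE 0.164, edgeR adjusted p = 0.0117) and Msx1 by 1.04 on the log2 scale (edgeR adjusted p = 0.0408), the latter called in only 21 of 41 alternatives.

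Of 7 spinal cord and neural progenitor markers tested, 2 were higher in neural gastruloids, Sox1 and Sox2, and of 3 neuron markers 1, Tubb3. Sox1, a transcription factor that marks committed neural progenitors, had 16.4, 26.0 and 42.5 CPM against 6.89, 10.9 and 24.5 CPM, with 11 of 11 neural gastruloids above the mesodermal median (log2 1.04, SE 0.186, edgeR adjusted p = 0.00185). Its relative Sox2, which keeps neural progenitors in their state, averaged 139 ± 30.2 against 90.8 ± 23.4 CPM (SD, n = 11 each, log2 0.59, SE 0.117, edgeR adjusted p = 0.0068). Sox3 did not pass the test (log2 0.16, edgeR adjusted p = 0.324). Tubb3, a tubulin of young neurons, had 11.2, 25.4 and 58.3 CPM against 4.10, 8.52 and 30.5 CPM (log2 1.32, SE 0.297, edgeR adjusted p = 0.0169), while Neurog1 was at 0 UMIs in every gastruloid and Dcx and Neurod4 had 3 and 1 UMIs in the whole neural class. The 10 neuron markers summed were at 90.7, 117 and 177 CPM against 47.2, 85.6 and 119 CPM. Meis2, a homeobox gene of tissue that has left the tailbud, had 23.2, 35.1 and 60.3 CPM against 3.09, 16.2 and 27.4 CPM (log2 1.28, SE 0.217, edgeR adjusted p = 0.00183). The Iroquois genes Irx1 and Irx5, patterning factors of the neural tube, were higher by 0.90 and 0.81 on the log2 scale. Of 5 dorsoventral spinal cord genes tested, Irx5 was higher and 2 were lower, Msx1, above, and Zic1, a zinc-finger gene of the dorsal neural tube (log2 -1.36, SE 0.364, edgeR adjusted p = 0.0494), whose call was lost in 31 of 40 alternatives. Also higher were the cyclin-dependent kinase inhibitor gene Cdkn1c (log2 0.68, SE 0.148, edgeR adjusted p = 0.014) and the genes of the secreted proteins Igfbp5 (0.92) and Sparc (0.80).

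Genes that time trunk development moved in both directions. Of 8 tested, 3 were higher and 1 was lower. Nr6a1, a nuclear receptor that sets the length of the trunk, had 60.7, 77.4 and 89.8 CPM against 50.5, 58.8 and 64.8 CPM, with all 11 neural gastruloids above the mesodermal median (log2 0.39, SE 0.0657, edgeR adjusted p = 7.5e-05). Prtg, a cell surface protein of early neural and paraxial tissue, was higher by 0.29 and Sall4, above, was the third. Lin28a, an RNA-binding protein that blocks let-7 miRNAs, was lower by a small amount (log2 -0.20, SE 0.0502, edgeR adjusted p = 0.0149), and 4 of 11 neural gastruloids lay above the mesodermal median.

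In the other lists few members or none were called. Among Hox genes, which give cells their position along the trunk, 1 of 11 tested in paralog groups 1 to 4 was called (Hoxb2, log2 -0.22, edgeR adjusted p = 0.02) and 0 of 14 in groups 5 to 9, with medians of -0.04 and -0.11. The 1 gene tested in groups 10 to 13, Hoxc10, did not pass (log2 -0.68, edgeR adjusted p = 0.507). No member was called in the retinoic acid list (7 tested), the Hedgehog pathway (5), S phase genes (36), oxidative phosphorylation (20), glycolysis and hypoxia targets (21), sterol and fatty acid synthesis (20), the amino acid and unfolded protein response (12) or immediate early and heat shock genes (6). Of 16 Myc and ribosome biogenesis genes 2 were lower, Mycn by 0.31 and Npm1 by 0.13, of 6 cadherins and EMT regulators 1 was lower (Vim), and of 11 Notch pathway genes 1 (Hes7). Cdkn1c was the 1 called of 17 imprinted genes and Sparc the 1 of 11 matrix genes. Of 10 p53 targets 2 were lower, Phlda3 by 0.62 and Bax by 0.14, and the median was -0.32. Of 49 G2M genes 1 was called, Cdca8 at 0.14, and the median was 0.06. Summed G2M genes made up 0.868% ± 0.0698 of the UMIs of neural and 0.816% ± 0.0897 of those of mesodermal gastruloids (SD, n = 11 each), a difference that did not pass adjustment over the 5 measures (two-sided exact permutation within experiment, p = 0.0384, adjusted p = 0.0895). Depth and mitochondrial content of the cells did not differ either past that adjustment, with 32690 ± 2829 against 33337 ± 3853 median UMIs per cell (adjusted p = 0.494, exact permutation) and 2.89% ± 1.59 against 2.79% ± 1.59 mitochondrial UMIs (adjusted p = 0.0895, exact permutation).

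**Figure D4:**
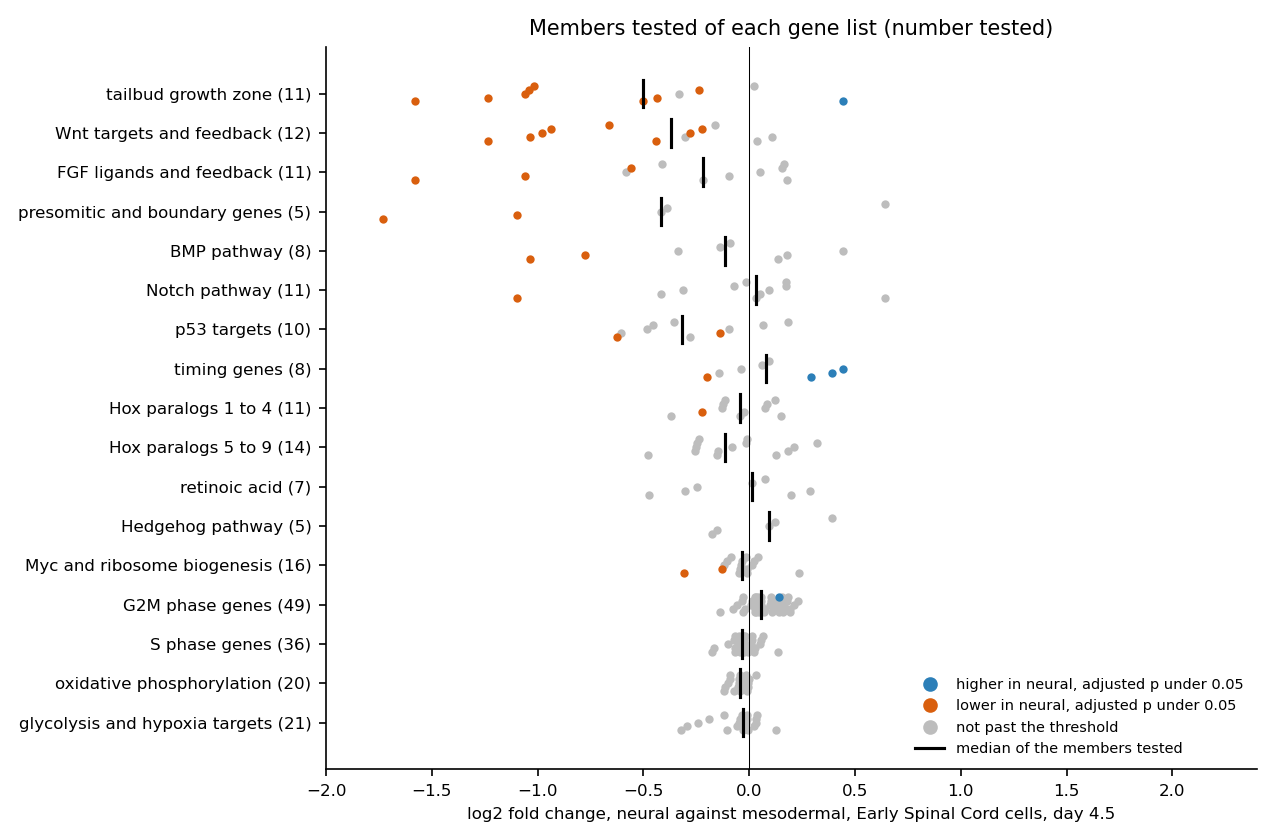
Log2 fold change (horizontal) of each tested member of the gene lists in Early Spinal Cord cells at day 4.5, neural against mesodermal, with blue and orange points for members called higher and lower, grey for the others and a line at the median of each list. The orange points gather in the tailbud growth zone and Wnt lists, with 8 each, and the medians of the S phase and G2M lists are -0.03 and 0.06.

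Cells named Early Spinal Cord also differed in the names they took when the authors mapped them onto an embryo reference. Spinal cord progenitors made up 23.5%, 34.0% and 49.2% of them in neural and 4.08%, 15.4% and 41.9% in mesodermal gastruloids, whereas the embryo name NMPs made up 30.0%, 38.6% and 51.3% and 38.7%, 52.4% and 69.4%. Both pairs of ranges overlapped. Neural tube was alike at the median, 16.2% and 16.1%. With only the cells of the most frequent embryo name, NMPs, kept, 29 genes were higher and 54 lower. Only 18 of the 118 genes called higher in the main comparison and 31 of the 136 called lower were also called in this setting. Rspo3, Fgf17 and Ets2 were called there and in all 41 alternative settings, and T in all but 1 (MULTI-seq 3 alone, log2 -1.05, edgeR adjusted p = 0.0822).

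The day 5 gastruloids of the series were other gastruloids, from MULTI-seq 1 (7 neural and 4 mesodermal with enough Early Spinal Cord cells) and MULTI-seq 3 (4 and 7). Most genes kept their direction there. Of the genes called higher at day 4.5, 91 of 108 tested had the same sign at day 5 and 23 were also called. Of those called lower, 118 of 135 had the same sign and 34 were called, beside 155 of 8837 genes (1.75%) called at day 5 in all, 0.724% higher and 1.03% lower, and 4697 of 8483 uncalled genes (55.4%) with the same sign. Pakap, an A-kinase anchoring gene, was called in opposite directions (log2 -0.74 and 0.48). In MULTI-seq 1 alone, which contributed nothing to the day 4.5 data and where 1.05% of genes were called (0.407% higher and 0.641% lower), 88 of 98 and 122 of 133 kept their sign. The share of uncalled genes that kept their sign was not counted for MULTI-seq 1 alone. Sp5 (log2 -1.27, edgeR adjusted p = 3e-06), Fgf17 (-1.32, 0.000385), Axin2 (-0.67, 0.000322), Greb1 (-0.55, 0.000206), T (-0.66, 0.0142) and Meis2 (1.01, 2.6e-05) were called at day 5. Rspo3 (-0.59, 0.219), Fgf8 (-0.61, 0.0506), Sox1 (0.19, 0.508) and Id3 (-0.15, 0.742) did not pass there. Whether the class difference itself changed between the days was tested in MULTI-seq 3, where 3 of 9502 genes (0.0316%) passed, among them Pakap and Cope.

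Mature Somites cells of neural gastruloids were few, and at a minimum of 10 cells in place of 20 they could be tested in 5 neural gastruloids (1 from the second experiment and 4 from the third, with 11 to 30 cells each) against 16 mesodermal ones. In these cells 2 of 9 retinoic acid genes (Crabp1 and Stra6), 2 of 12 Notch genes (Notch1 and Heyl) and 2 of 14 somite genes (Uncx and Tcf15) were higher, and 2 of 8 BMP genes (Id2 and Id3) and the somite gene Pax9 were lower. Of 9826 genes 178 (1.81%) were called, 117 higher (1.19%) and 61 lower (0.621%), and 59 of them differed by more than 2-fold. For 35 of the 178 the ranges of the classes, with both experiments pooled, did not overlap, against 65 of all 9826. Without the neural gastruloid of barcode 65 the counts fell to 66 and 30, without that of barcode 56 to 69 and 38, and without lane A of MULTI-seq 3 to 57 and 33. The name was checked against the 10 somite markers, which were at 1748, 1839 and 2126 CPM summed in neural and 905, 1473 and 2012 CPM in mesodermal gastruloids, while the 10 neural progenitor markers were at 23.7, 55.0 and 64.5 CPM against 24.5, 45.6 and 74.5 CPM. The somite sum includes the called genes Tcf15 and Uncx, which averaged 1007 and 193 CPM in neural and 651 and 50.1 CPM in mesodermal gastruloids. Of 9 somite markers tested 2 were higher and 1 lower, and their median log2 fold change was -0.19. The 10 neuron markers were at 51.6, 59.2 and 174 CPM against 32.1, 45.5 and 62.0 CPM. Of the 2 neuron markers tested Tubb3 was higher (log2 1.90, SE 0.347, edgeR adjusted p = 0.000798) and Stmn2 was not called (0.70, 0.37), and the part of such RNA in the other differences was not tested.

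Crabp1, which encodes a cytoplasmic retinoic acid binding protein, was at 944, 1186, 501, 983 and 923 CPM in the 5 neural gastruloids and at 182, 251 and 425 CPM (lowest, median and highest) in the mesodermal ones. Every neural value lay above every mesodermal value (log2 1.75, SE 0.176, edgeR adjusted p = 2.6e-05). Stra6, a receptor that takes up retinol, was at 8.86, 29.6, 26.9, 12.1 and 11.8 CPM against 1.95, 5.85 and 10.5 CPM (log2 1.40, SE 0.314, edgeR adjusted p = 0.00793), so 1 neural gastruloid lay inside the mesodermal range. These 2 were the called members of the retinoic acid list, of 9 tested.

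Of 14 somite genes tested, 2 were higher and 1 was lower. Uncx, a homeobox gene of the posterior part of each somite, was at 160, 163, 406, 119 and 120 CPM against 12.95, 46.4 and 96.3 CPM. The ranges did not overlap, and the gastruloid at 406 CPM stood far from the other neural ones (log2 1.70, SE 0.383, edgeR adjusted p = 0.0244). Without it the log2 fold change was 1.26 and the call was lost. Outside the list, Dmrt2, a factor of the dermomyotome, the outer layer that forms muscle and dermis, was at 168, 76.4, 169, 83.4 and 106 CPM against 7.77, 31.7 and 65.9 CPM (log2 1.66, SE 0.367, edgeR adjusted p = 0.0227). Its ranges did not overlap either, yet its call was lost in 7 of 19 alternatives. Tcf15, a general factor of epithelial somites, differed less, with 806, 1021, 1056, 1095 and 1057 CPM against 358, 693 and 1029 CPM (log2 0.48, SE 0.114, edgeR adjusted p = 0.0331), and its call was lost in 11 of 19. Pax9, a gene of the sclerotome that forms vertebrae, had 0 UMIs in all 5 neural gastruloids among 2525216 UMIs. The floor of 3 counts over the class is 1.19 CPM, and the mesodermal gastruloids had 245 UMIs or 6.52 CPM. By this floor Pax9 was at least 5.49-fold lower over the summed UMIs (edgeR adjusted p = 0.045). Its call was lost in 8 of 18 alternatives.

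The Notch receptor gene Notch1 was at 70.9, 150, 256, 105 and 136 CPM in neural and 30.4, 59.7 and 90.8 CPM in mesodermal gastruloids (log2 1.15, SE 0.228, edgeR adjusted p = 0.0113), and its target Heyl at 17.7, 12.3, 105, 4.39 and 11.8 CPM against 0.324, 1.65 and 7.17 CPM (log2 3.67, SE 0.718, edgeR adjusted p = 0.0104). They were the called members of 12 tested in the pathway. The value of 105 CPM for Heyl was again from the gastruloid with the high Uncx, and without it the log2 fold change of Heyl was 2.23, still called.

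In the BMP list 2 of 8 members were lower. Id2, an inhibitor of basic helix-loop-helix factors, was at 26.6, 34.5, 7.33, 34.0 and 7.88 CPM in neural and 90.1, 142 and 214 CPM in mesodermal gastruloids, with a wide gap between the classes (log2 -2.56, SE 0.361, edgeR adjusted p = 0.000827). Id3 was at 133, 71.5, 92.9, 77.9 and 9.84 CPM against 144, 215 and 381 CPM (log2 -1.53, SE 0.325, edgeR adjusted p = 0.0169). Ebf2, a factor of mesenchymal cells, was at 8.86, 7.40, 17.1, 6.59 and 11.8 CPM against 23.4, 33.5 and 49.9 CPM (log2 -1.77, SE 0.292, edgeR adjusted p = 0.000579). Mycn, a growth-promoting transcription factor, fell by 1.33 on the log2 scale, and 2 of 10 genes of the amino acid and unfolded protein response were higher, the amino acid synthesis genes Asns and Phgdh, by 1.12 and 0.68. Asns was at 97.5, 165, 39.1, 182 and 244 CPM against 45.7 to 100 CPM. The neural gastruloid of barcode 55 lay below every mesodermal one, and that of barcode 13, at 97.5 CPM, lay inside their range. Phgdh of barcodes 55 and 13, at 66.0 and 97.5 CPM, lay inside the mesodermal range of 59.4 to 98.2 CPM.

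**Figure D5:**
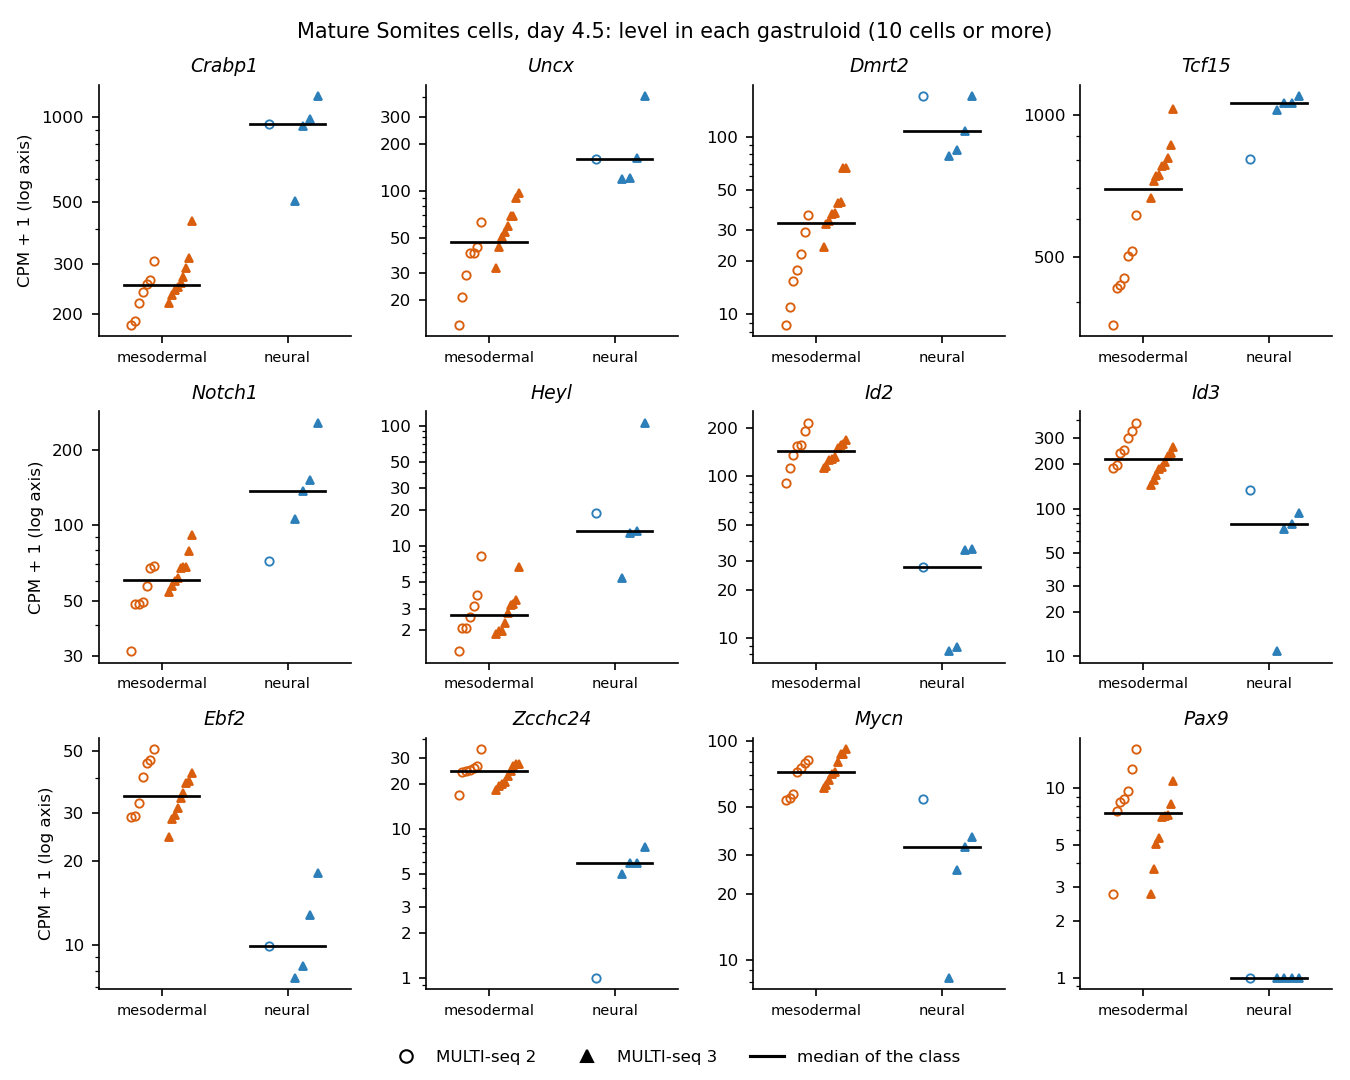
Level of 12 genes in Mature Somites cells of each day 4.5 gastruloid with 10 or more such cells, as CPM plus 1 on a log axis, with 5 neural and 16 mesodermal gastruloids, open circles for MULTI-seq 2, filled triangles for MULTI-seq 3 and a line at the median of the class. The neural points of Crabp1, Uncx and Dmrt2 lie above and those of Id2, Id3, Ebf2, Zcchc24 and Pax9 below all mesodermal points.

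Markers of other mesoderm were also summed in these cells. The 8 cardiopharyngeal markers summed were at 7.50, 18.95 and 47.3 CPM in neural and 28.5, 54.1 and 99.8 CPM in mesodermal gastruloids, and the 8 endothelial markers at 0, 2.50 and 5.30 CPM against 3.49, 16.7 and 52.9 CPM, so both pairs of ranges overlapped. Of 3 cardiopharyngeal markers tested 1 was lower, Isl1 (log2 -2.74, SE 0.737, edgeR adjusted p = 0.033), and of 2 endothelial markers 0 were called. By embryo name, Dermomyotome held 15.8%, 36.4% and 46.7% of the Mature Somites cells against 11.1%, 19.9% and 43.8%, Posterior somitic tissues 9.09%, 31.2% and 45.5% against 5.19%, 18.4% and 28.0%, and Sclerotome 9.09%, 16.7% and 36.4% against 7.5%, 19.7% and 50.0%. The part of this makeup in the gene differences was not tested.

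At day 5 the same name could be tested in 11 neural and 15 mesodermal gastruloids, which were other gastruloids than those of day 4.5. There 1449 of 9379 genes (15.4%) were called, 755 higher (8.05%) and 694 lower (7.4%). Of the genes called higher at day 4.5, 94 of 111 had the same sign and 52 were called, and of those called lower 49 of 57 and 28, beside 5344 of 9131 uncalled genes (58.5%) with the same sign. Crabp1 (log2 1.46, edgeR adjusted p = 0.000258), Heyl (2.13, 2.7e-07), Notch1 (0.91, 1.4e-07), Dmrt2 (1.52, 1.3e-05), Tcf15 (0.50, 0.000365), Id2 (-1.76, 0.000868), Stra6 (0.87, 0.000143) and Id3 (-1.26, 0.00156) were called again, as was the lower level of Ebf2 (edgeR adjusted p = 0.00013). Uncx (0.39, 0.0585), Mycn (-0.35, 0.0624), Asns (0.22, 0.363), Phgdh (-0.16, 0.309) and Pax9 (-0.38, 0.393) were not, and Phgdh had the opposite sign.

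In the 2 posterior names with enough cells few genes were called, from 6 and 4 neural gastruloids with few cells each. In NMPs, with 6 neural and 15 mesodermal gastruloids of 10 or more cells, 13 of 6141 genes (0.212%) were called, 5 higher (0.0814%) and 8 lower (0.13%). An unadjusted p under 0.05 (edgeR) was found for 590. List medians of the log2 fold change were -0.25 (tailbud), -0.21 (Wnt), -0.27 (presomitic) and 0.02 (FGF), beside 0.003 over all genes tested. T, the only called member of the 12 tailbud genes tested there, was at 102, 167 and 189 CPM in neural and 177, 280 and 406 CPM in mesodermal gastruloids (log2 -0.72, SE 0.141, edgeR adjusted p = 0.0366). Its level in NMPs of neural gastruloids was still above that in Early Spinal Cord cells of either class. T was not called in MULTI-seq 3 alone (log2 -0.67, edgeR adjusted p = 0.442), where no gene was, nor without any 1 of the 5 lanes (log2 -0.75 to -0.56). In Late Posterior PSM, with 4 neural and 16 mesodermal gastruloids, 3 of 7628 genes (0.0393%) were called, 2 higher (0.0262%) and 1 lower (0.0131%). Lgals1, which encodes a galectin, was at 44.1, 49.7, 29.0 and 56.1 CPM against 7.99, 19.2 and 32.9 CPM (log2 1.26, SE 0.221, edgeR adjusted p = 0.00224), and C1d, an exosome cofactor gene, at 97.8, 99.5, 105 and 87.8 CPM against 117, 132 and 151 CPM (log2 -0.50, SE 0.108, edgeR adjusted p = 0.0447). With both experiments pooled, C1d was the only called gene whose ranges did not overlap. The third was mt-Co3, a mitochondrial gene that differed more between the experiments than between the classes, at 9530 CPM in the neural gastruloid of MULTI-seq 2 and 3436, 3305 and 3258 CPM in those of MULTI-seq 3, against 7448 to 8445 and 2681 to 3072 CPM in the mesodermal ones (log2 0.20, SE 0.036, edgeR adjusted p = 0.00224). Within each experiment every neural value of mt-Co3 lay above every mesodermal one. No gene was called without lane A of MULTI-seq 3, or without the neural gastruloid of barcode 13. The 8 PSM markers summed in these cells had medians of 2154 CPM in neural and 2077 CPM in mesodermal gastruloids. The 5 neural crest markers were at 3.72, 15.5 and 21.1 CPM against 3.04, 6.28 and 8.99 CPM and the 8 endoderm markers at 2.08, 16.2 and 24.8 CPM against 2.70, 8.5 and 16.4 CPM. The summed notochord markers went the other way, at 24.8, 49.7 and 58.2 CPM against 56.3, 76.2 and 111 CPM, but T gave most of this sum. T alone averaged 45.9 and 77.1 CPM and was the only 1 of these markers tested there (log2 -0.60, edgeR adjusted p = 0.473). Median UMIs per cell averaged 23855 ± 3269 (SD, n = 4) against 27342 ± 2758 (SD, n = 16), a difference that did not pass adjustment over 12 measures (two-sided exact permutation within experiment, p = 0.00625, adjusted p = 0.075). With mean log UMIs per cell as a covariate 3 genes were higher, 1 of them among the 2 above, and 0 lower. The part of the marker RNA in the called genes was not tested.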

How the data were processed

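Single cells of gastruloids were captured with 10x Genomics 3′ chemistry, per the labels' protocols. The deposited files hold raw UMI counts of 32285 genes per cell barcode, aligned to mm10 with Cell Ranger 6.0.0 per the submitters' processing notes, which also name Seurat; the sources used here do not give the gene annotation. Cells, days, classes, cell type names and embryo names came from the authors' deposited cell table, and cells not assigned to 1 gastruloid were left out. None of the table's 77683 cells carries a positive combined doublet call of the authors, and no doublet caller was run here. Doublets within 1 gastruloid, which barcodes cannot show, may remain.

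UMIs were summed over lanes per gastruloid and cell type name (20 cells or more, or 10 where stated). Genes were tested with edgeR 4.0.16 in R 4.3.3 (TMM, filterByExpr, robust quasi-likelihood test, experiment as a block, Benjamini-Hochberg adjustment over all genes of the type, threshold 0.05), after a check on simulated data. DESeq2 1.42.0 served as an alternative. Levels in CPM are counts per 1000000 summed UMIs. Named genes were the 8 largest changes in each direction among called genes with at least 20 CPM in the higher class. Called members of 26 gene lists were added. The 12 marker lists served to check the names of the cells. Called markers outside this rule, such as Sox2 and Isl1, were not followed over the alternative settings. The members and lists were chosen with earlier results of these data known. Cell measures were compared by two-sided exact permutation within experiment, over 9060480 labellings for cells per gastruloid and 240240 for Early Spinal Cord. Counting floors (3 counts) cover counting error only. Of the values far from their group and of the genes whose class difference changed between days, 1 each is not reported here.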

Additional observations from a re-analysis of the deposited data

Results flagged for a closer look

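Among 39 groups of 4 to 10 gastruloids searched, 6 held a value far from the others. The usual chance rate of about 1 in 20 does not apply to this count. The genes were those named from these same data, the groups share gastruloids, and both experiments were pooled. In Mature Somites the neural gastruloid of barcode 55 in MULTI-seq 3 was highest for Heyl, at 105 CPM with the next at 17.7 CPM, and for Uncx, at 406 CPM with the next at 163 CPM. Both values, for the Notch target Heyl and the posterior somite gene Uncx, are sums over the 11 cells of that gastruloid.

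The neural gastruloid of barcode 13 in MULTI-seq 2 held 2 of the far values given here. It was the only neural gastruloid of that experiment in both types concerned. In Late Posterior PSM its mt-Co3 level was 9530 CPM with the next at 3440 CPM, and the mesodermal gastruloids also differed by experiment, at 7448 to 8445 CPM in MULTI-seq 2 and 2681 to 3072 CPM in MULTI-seq 3. In Mature Somites its Tcf15 level was the lowest, at 806 CPM with the next at 1020 CPM, and that of the mesodermal gastruloids was 358 to 612 CPM in MULTI-seq 2 and 664 to 1029 CPM in MULTI-seq 3. In NMPs the gastruloid of barcode 23 in MULTI-seq 3 had the lowest level of Bptf, a chromatin remodelling subunit, at 133 CPM with the next at 158 CPM.

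In Early Spinal Cord cells of MULTI-seq 3 the difference between the classes itself differed between days 4.5 and 5 for 3 of 9502 genes (edgeR's quasi-likelihood test of class by day, Benjamini-Hochberg adjustment). Pakap went from 2.96, 6.06 and 6.45 CPM (lowest, median and highest) in neural against 6.53, 10.6 and 14.7 CPM in mesodermal gastruloids at day 4.5 to 14.7, 15.3 and 16.2 CPM against 7.62, 11.6 and 12.6 CPM at day 5. The change in its log2 fold change was 1.42 (SE 0.257, edgeR adjusted p = 0.00862). Cope, a subunit of the coat of Golgi vesicles, changed by 0.565 (edgeR adjusted p = 0.0164), from a log2 fold change of -0.16 to 0.41.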

How the results depend on the processing

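No paired analysis was possible because both classes are gastruloids of the same pools, and neither lanes nor barcode numbers pair them. In Early Spinal Cord, with 118 genes higher and 136 lower, other tools and size factors moved the counts little (121 and 135 with DESeq2). Larger moves came with no filter on low counts (241 higher), 50 cells or more (76 higher and 181 lower, with 40 of the 118 and 60 of the 136 shared), no experiment term (43 and 37), MULTI-seq 2 alone (16 and 26), MULTI-seq 3 alone (40 and 47) and only cells of the most frequent embryo name (29 and 54). At 50 cells the mesodermal class kept only barcode 45 of MULTI-seq 2 and barcodes 49 and 66 of MULTI-seq 3. Single experiments and single names hold fewer cells, and the cause was not tested otherwise. Leaving out 1 lane or gastruloid gave 71 to 153 higher and 81 to 157 lower. In Mature Somites, from 117 and 61, DESeq2 gave 191 higher, no filter 166 lower, MULTI-seq 3 alone 69 higher, and leaving out 1 lane or neural gastruloid 57 to 174 and 30 to 69. In NMPs, from 5 and 8, DESeq2 gave 2 lower, no filter 15 and 56, no experiment term 0 and 0, MULTI-seq 2 alone 0 and 3, MULTI-seq 3 alone 0 and 0, leaving out the cells with the most UMIs 1 and 1, mean log UMIs per cell as a covariate 0 and 0, adjustment over 4 cell types together 10 and 14, and leaving out 1 lane 0 to 1 and 0 to 4. In Late Posterior PSM, from 2 and 1, no filter gave 5 and 13, no experiment term 1 and 0, MULTI-seq 3 alone and the most frequent embryo name 0 and 0, joint adjustment 8 and 4, and DESeq2, RLE size factors, leaving out the cells with the most UMIs and the covariate each 0 lower; leaving out 1 lane or neural gastruloid gave 0 to 4 and 0 to 2. With no filter, the 155 day 5 calls in Early Spinal Cord became 252, the 0 class by experiment calls 1 and the 3 class by day calls 51. Directions reversed for Cdca8 in cells of the most frequent embryo name (-0.030) and for mt-Co3 in Late Posterior PSM with no experiment term (-0.064). They also reversed in MULTI-seq 2 alone for median UMIs per cell (1439, and -1319 to 1290 without 1 lane). S phase genes did so there too (-0.0028, and -0.00122 to 0.0095 without 1 lane). Cell measures are differences of means pooled over experiments, so their sign can follow the mix of experiments in each class. Mitochondrial percent was at least 4.66 in every MULTI-seq 2 gastruloid and at most 1.86 in MULTI-seq 3. Its pooled difference was -0.094 at 50 cells or more and -0.340 to 0.348 without 1 lane. In the main setting it was 0.0982 within MULTI-seq 2 and 0.102 within MULTI-seq 3, so the pooled signs are not counted as reversals. Mature Somites with only the most frequent embryo name could not be fitted. Depth limits the neural side of the 10-cell comparisons, where a gastruloid gave as few as 10 cells.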

Other observations

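In Early Spinal Cord cells the intermediate filament gene Vim was lower in neural gastruloids, at 71.8, 98.8 and 159 CPM (lowest, median and highest of 11) against 73.7, 144 and 285 CPM, with ranges that overlapped widely (log2 -0.50, SE 0.0965, edgeR adjusted p = 0.00501). Epha5, an ephrin receptor gene on the tailbud list, was lower in Early Spinal Cord (log2 -0.50, SE 0.131, edgeR adjusted p = 0.0432), a call lost in 27 of 41 alternatives. Mycn was lower in both Early Spinal Cord (log2 -0.31, SE 0.0782, edgeR adjusted p = 0.0143) and Mature Somites (log2 -1.33, SE 0.251, edgeR adjusted p = 0.00615). Id3 was lower in both as well. Meis2, which was higher in Early Spinal Cord, went the other way in Mature Somites. Its class means there were 126.9 CPM in neural and 271.2 CPM in mesodermal gastruloids (log2 -1.003, SE 0.1942, edgeR adjusted p = 0.009643). That call in Mature Somites was not followed over the alternative settings. Jund, a subunit of the AP-1 factor, was higher in Early Spinal Cord, at 23.2, 45.2 and 95.8 CPM against 17.0, 25.3 and 42.6 CPM (log2 0.82, SE 0.203, edgeR adjusted p = 0.0301), a call lost in 16 of 41 alternatives.

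In Mature Somites cells the stress-induced gene Nupr1 was at 17.7, 39.4, 4.89, 29.6 and 110 CPM in the 5 neural gastruloids against 0.387, 3.76 and 17.0 CPM in the mesodermal ones, so 1 neural value lay inside the mesodermal range and another at its upper edge (log2 2.59, SE 0.519, edgeR adjusted p = 0.0117). Without the gastruloid at 110 CPM the log2 fold change was 1.83 and the call was lost. Clu, a secreted chaperone, ran from 0 to 423 CPM over the neural gastruloids against 24.5 to 89.5 CPM (log2 1.79, SE 0.426, edgeR adjusted p = 0.0337). Zcchc24 was at 0, 4.93, 4.89, 6.59 and 3.94 CPM against 15.8, 23.5 and 33.2 CPM, with no overlap (log2 -2.17, SE 0.330, edgeR adjusted p = 4.7e-05), and was called in all 19 alternatives, as were Crabp1, Id2 and Ebf2.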
